A study of Homo sapiens with 8 samples.

Results

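PVT1, a long noncoding RNA gene, and 8 genes of the MYC network were followed in IGROV-1 tumour cells from mice given CpG-ODN or saline. The network genes were MYC, its partner MAX, the MAX-binding repressors MXD1, MXD3, MXD4, MXI1 and MNT, and the MAX-like protein MLX. They are 9 of 18852 genes named on the array. All 17 probes whose platform symbol was one of the 9 were taken from the 48797 probes of the signal table. Of the 17, 12 probes of 8 genes passed a filter that asked for detection above background (detection p under 0.05) on at least 4 of the 8 arrays, as did 18184 probes in all. Each of these 12 was in fact detected on at least 7 arrays. PVT1 was chosen by its measured log2 difference between the same 2 groups of arrays, so its values are described without a test. The other genes were chosen for their role, with earlier results of these arrays known.

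IGROV-1 is an established human ovarian carcinoma line that had been adapted to grow in the mouse peritoneal cavity, and each group comes from this 1 line. CpG-ODN, here the phosphorothioate oligonucleotide ODN1826, carries unmethylated CpG motifs and is a ligand of Toll-like receptor 9. The CpG-ODN group (4 arrays) received 20 µg per mouse into the peritoneal cavity, on 3 consecutive days or 1 time, and the saline group (4 arrays) received saline. The labels do not say which arrays had which schedule. All mice carried tumours from 2500000 injected ascites cells, dosing started 10 to 11 days after the injection, and tumour cells on the peritoneal wall were taken 24 hours after the last dose, when host cells of the mouse could be taken with them. The labels give 4 mice per group but tie no array to a mouse, so every p-value rests on array-to-array spread alone, which may be technical.

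MYC is a basic helix-loop-helix leucine zipper transcription factor that binds DNA as a dimer with MAX, at E-boxes with the core CACGTG, and drives genes of growth, ribosome production and the cell cycle. The MXD proteins, MXI1 and MNT compete for MAX and recruit the SIN3 and histone deacetylase co-repressors to the same sites, and MLX pairs with MXD1, MXD4, MNT and the glucose-sensing factors MLXIP and MLXIPL. PVT1 lies next to MYC in a region often amplified in ovarian carcinoma. Its transcripts have been reported to stabilise MYC protein, and its promoter to compete with that of MYC for enhancers.

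The core letters CACGTG were searched in the promoter windows of the members, since MYC network dimers bind this palindrome and members may carry it themselves. The windows are the 300 bases around each gene's start in RefSeq (GRCh38.p14), from upstream of the start into the transcript, and the motif reads the same on both strands. MYC and PVT1 were left out of this search, so their windows were not read. The other 7 of the 9 genes had 10 windows in all. The motif stood in 3 of these windows, 1 each of MXD4, MNT and MLX. In all, 2548 of 35116 promoter windows of the same length (7.26%) held it. A match describes the letters and is not evidence of binding. The 3 windows are printed 5′ to 3′ on the strand of the gene, with the motif in capitals.
MXD4, chr4:2262060-2262359, minus strand: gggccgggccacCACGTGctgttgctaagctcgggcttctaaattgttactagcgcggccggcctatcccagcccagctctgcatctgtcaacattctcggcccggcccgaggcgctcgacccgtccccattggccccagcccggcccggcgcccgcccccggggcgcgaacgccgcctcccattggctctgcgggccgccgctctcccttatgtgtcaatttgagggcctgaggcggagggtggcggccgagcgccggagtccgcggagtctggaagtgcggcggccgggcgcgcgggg
MNT, chr17:2401011-2401310, minus strand: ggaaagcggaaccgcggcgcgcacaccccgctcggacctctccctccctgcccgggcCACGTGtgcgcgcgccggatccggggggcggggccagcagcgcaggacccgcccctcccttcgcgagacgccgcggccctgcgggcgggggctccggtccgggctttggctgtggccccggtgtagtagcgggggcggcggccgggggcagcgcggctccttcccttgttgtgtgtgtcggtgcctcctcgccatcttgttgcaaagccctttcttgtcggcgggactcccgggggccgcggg
MLX, chr17:42566850-42567149, plus strand: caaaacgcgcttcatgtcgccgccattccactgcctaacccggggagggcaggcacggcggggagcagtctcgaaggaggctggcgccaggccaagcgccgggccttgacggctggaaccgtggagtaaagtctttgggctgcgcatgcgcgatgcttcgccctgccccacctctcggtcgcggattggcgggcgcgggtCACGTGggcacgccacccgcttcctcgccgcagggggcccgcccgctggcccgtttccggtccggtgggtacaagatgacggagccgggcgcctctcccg

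Arrays had a mean raw signal of 899 ± 122 with CpG-ODN and 939 ± 93.9 with saline (SD, n = 4 each), which differed by less than their spread (two-sided p = 0.514, exact permutation). They detected 18491 ± 62.4 probes with CpG-ODN and 19452 ± 634 with saline (SD, n = 4 each; two-sided p = 0.0286, exact permutation, the smallest this design allows). Pearson correlations of 2 arrays were 0.982 to 0.988 in the same group and 0.959 to 0.972 in different groups. Of 13 ovarian carcinoma and epithelial markers on the array, 11 passed the filter and 1 was higher with CpG-ODN. PAX8, EPCAM and KRT7 were detected on every array, CLDN4 on 1 saline array alone and WT1 on none. The summed signal of the 13 ran from 118800 to 124300 with CpG-ODN and from 119500 to 138800 with saline. Markers of other cells that the tissue could hold moved with the groups in part. The summed signal of 5 endothelial markers was 823 to 1173 with CpG-ODN and 582 to 662 with saline, and 2 of them were higher. That of 8 macrophage markers was 6986 to 10620 with CpG-ODN and 5513 to 7407 with saline, with 2 higher, 1 lower, and MRC1 and CSF1R detected on no array. The brightest macrophage marker, CD68, rose by 0.65 (limma, adjusted p = 0.0158), and AIF1, the next, fell by 1.09 (limma, adjusted p = 0.0277). CD14, detected on 1 saline array, rose by 0.76 (limma, adjusted p = 0.0145). The sum of 8 fibroblast markers was 1119 to 1306 with CpG-ODN and 2051 to 2712 with saline, with COL1A2, COL3A1 and LUM detected nowhere. Of the fibroblast markers, ACTA2, an actin gene that smooth muscle cells also express, was lower, at 9.92 ± 0.09 with CpG-ODN and 11.07 ± 0.24 with saline (log2, SD, n = 4 each). The other 3 kept ones, FAP, DCN and COL1A1, did not pass, with log2 differences of -0.17, 0.45 and -0.04. For 5 mesothelial markers it was 615 to 768 with CpG-ODN and 769 to 893 with saline, and 1 was higher and 1 lower. No lymphocyte marker of 7 was kept, and no neutrophil marker of 6 passed the test. The array carries human probes, and the part of these markers in the results below was not tested.

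PVT1 was about 4 times as high with CpG-ODN. Its probe had log2 levels of 9.55, 9.25, 9.41 and 9.02 on CpG-ODN arrays 1 to 4, against 7.42, 7.47, 7.11 and 7.21 on saline arrays 1 to 4. Levels here are log2 of the background-corrected, quantile-normalized signal with an offset of 16. The groups did not overlap: the lowest CpG-ODN array exceeded the highest saline array by 1.55 on the log2 scale. In the signals as deposited, before normalization, the probe read 767, 735, 993 and 558 with CpG-ODN and 407, 356, 316 and 320 with saline, again without overlap. It was detected on all 8 arrays, with a detection p of at most 0.00264.

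The means of PVT1 were 9.31 ± 0.23 with CpG-ODN and 7.30 ± 0.17 with saline (SD, n = 4 each), a log2 difference of 2.00 ± 0.15 (SE) or 4.01-fold. This was the 26th largest increase among the 18184 probes, and 0.286% of them differed by a larger amount in either direction. PVT1 was chosen by this same difference, so its high rank follows from that choice. The difference ran from 1.93 to 2.10 when each array was left out in turn. With no correction for background it was 1.29, as it was in the table the authors normalized, which keeps the background in the signal. In bulk samples such as these, fewer cells of a type and less RNA per cell cannot be told apart.

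**Figure D1:**
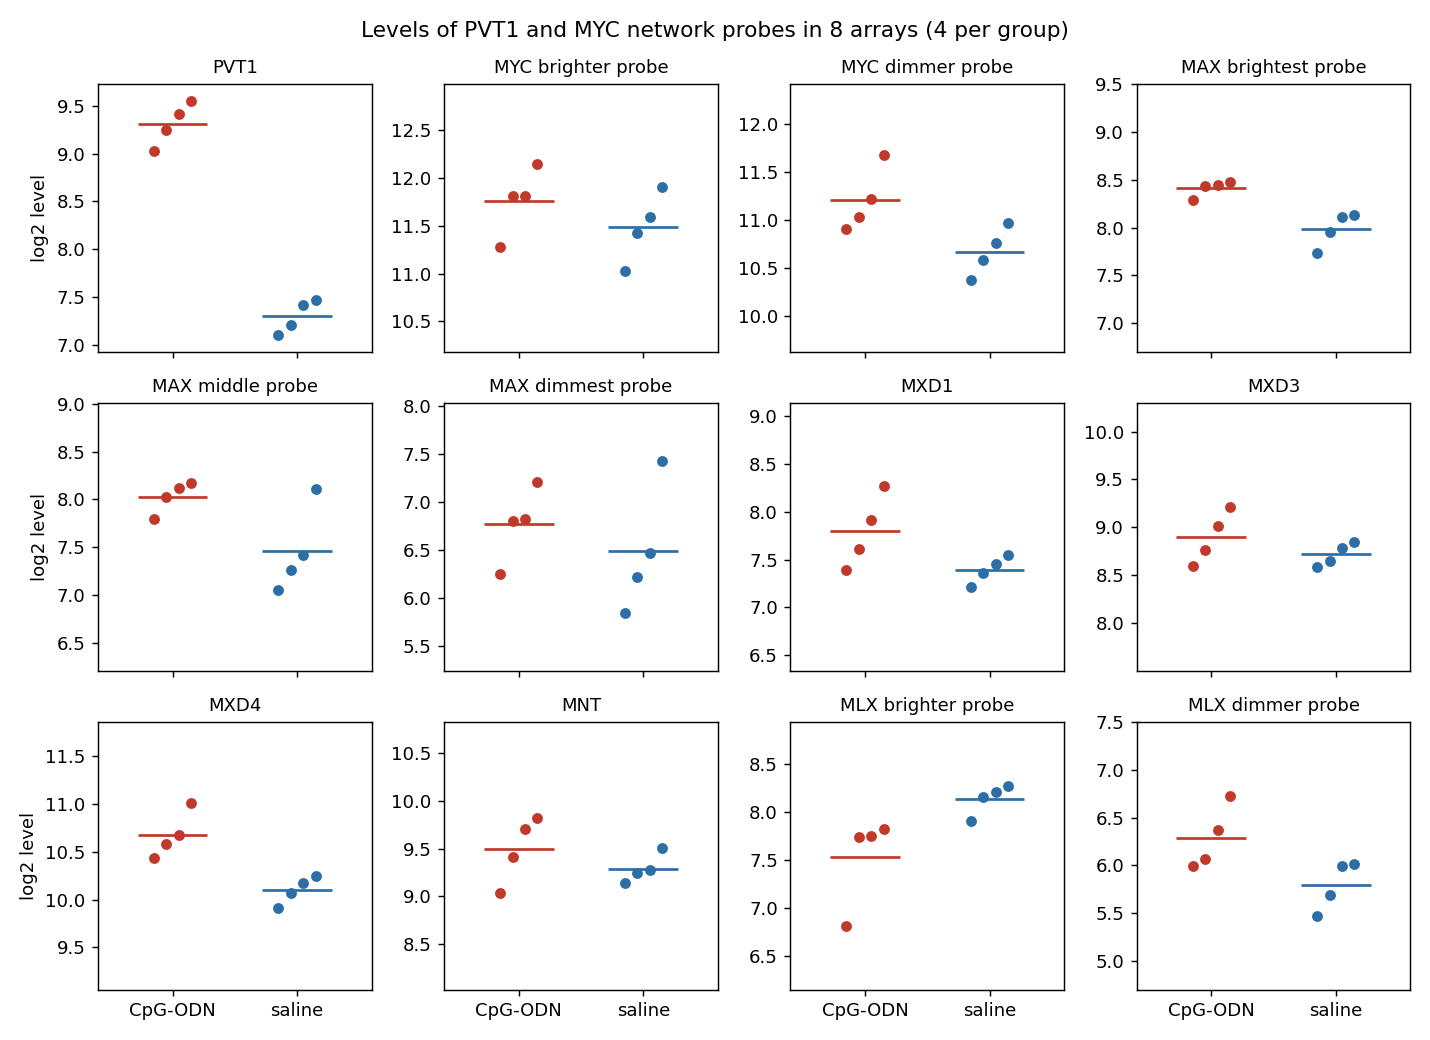
Log2 levels (vertical axis, background-corrected and normalized) of the 12 kept probes of PVT1 and the MYC network, 1 panel per probe with a span of equal height. Each point is 1 array, sorted by level within its group (4 CpG-ODN left, 4 saline right), and the bars are group means. PVT1 separates, with means of 9.31 with CpG-ODN and 7.30 with saline, and MXD4 and the brightest MAX probe separate by less.

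Transcripts of MYC itself were above background on every array of both groups and did not pass the test with either probe. The brighter MYC probe (ILMN_1680618) had log2 levels of 12.14, 11.81, 11.81 and 11.28 with CpG-ODN, against 11.42, 11.90, 11.02 and 11.59 with saline. The groups overlapped widely, with the lowest CpG-ODN array below 3 of the 4 saline arrays. The difference was 0.27 ± 0.22 (SE; limma, adjusted p = 0.397). The dimmer MYC probe (ILMN_2110908) had 11.68, 10.90, 11.21 and 11.03 with CpG-ODN, against 10.96, 10.58, 10.76 and 10.37 with saline. Only CpG-ODN 2 fell below the highest saline array, by 0.06. Its difference was 0.54 ± 0.19 (SE; limma, adjusted p = 0.0605), the smallest adjusted p among the member probes that did not pass. This probe passed without CpG-ODN 2 (0.64, adjusted p = 0.0471), without saline 1 (0.64, adjusted p = 0.0449), and in 9 of 21 alternatives in all. Both MYC probes are assigned to the same transcript (NM_002467). The level of one relative to the other changed by -0.26 between the groups (exact permutation test, two-sided p = 0.4, 0.667 after adjustment over 5 probe pairs).

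The 11 kept network probes stand for 7 of the 8 network genes. MAX, MYC and MLX have more than 1 each and so weigh more in the counts below. Of the 11, 2 passed as higher with CpG-ODN and 0 as lower. Over all probes tested, 26.6% passed, 12.8% as higher and 13.9% as lower. The fitted difference was above 0 for 10 of the 11, though MXD3 turned to -0.02 when arrays were scaled to their median over all probes. The median of the 11 was 0.40, beside 0.01 over all tested probes. The groups did not overlap for 3 of the 11, 2 higher and 1 lower, and over all probes this held for 28.9%, 14.0% as higher. The adjusted p was 0.0316 just inside the threshold and 0.0605 just outside it.

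MAX, the shared partner, had 4 probes for different transcripts, of which 1 passed. The brightest (ILMN_1802457, for transcript NM_145114) had log2 levels of 8.48, 8.43, 8.45 and 8.28 with CpG-ODN, against 7.73, 8.13, 7.96 and 8.11 with saline. The groups did not overlap after normalization, while the raw signals of 406 to 587 with CpG-ODN and 432 to 463 with saline did. It rose by 0.43 ± 0.13 (SE; limma, adjusted p = 0.0316). The call was lost in 10 of 21 alternatives. These included leaving out any 1 of CpG-ODN 1, 2 or 3 and saline 1 or 3 (adjusted p = 0.0630 to 0.0767). Scaling to the array median (0.22, adjusted p = 0.498) and omitting the filter (adjusted p = 0.0785) were among them too.

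The middle MAX probe (NM_002382) had 8.17, 8.12, 8.02 and 7.79 with CpG-ODN, against 7.42, 7.26, 7.05 and 8.11 with saline. Saline 4 stood within the CpG-ODN range and the other saline arrays below it. The difference was 0.56 ± 0.21 (SE; limma, adjusted p = 0.0746), and 0.79 without saline 4 (adjusted p = 0.00637). For the dimmest kept probe (NM_145112), levels were 6.25 to 7.21 with CpG-ODN and 5.85 to 7.43 with saline, and the difference was 0.28 ± 0.31 (SE; limma, adjusted p = 0.562). The remaining MAX probe (NM_145113) was detected on 0 of 4 arrays with CpG-ODN and 1 of 4 with saline. None of the 3 pairs of kept MAX probes passed the test for unequal changes. The differences of -0.14, 0.15 and 0.28 had adjusted p of 0.667 to 0.714 (exact permutation test, two-sided, 5 probe pairs). The second of these, brightest against dimmest, was -0.06 without CpG-ODN 1 and -0.13 without saline 4.

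MXD4, a MAX-binding repressor linked to differentiation, gave the clearest change among the network genes. Its log2 levels were 10.58, 10.67, 10.44 and 11.01 with CpG-ODN, against 10.07, 9.91, 10.17 and 10.25 with saline. Every CpG-ODN array lay above every saline array, by at least 0.19. In the raw signals, 1420 to 1882 with CpG-ODN and 1128 to 1581 with saline, the groups overlapped. Transcripts of MXD4 rose by 0.57 ± 0.15 (SE), or 1.49-fold (limma, adjusted p = 0.0164). The call held with each array left out (adjusted p = 0.0145 to 0.0487). It was lost with scaling to the array median (0.45, adjusted p = 0.115) and against a minimum change of 1.5-fold (adjusted p = 1).

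The other repressors did not pass. MXD1, induced during differentiation in several lineages, had log2 levels of 8.27, 7.61, 7.91 and 7.39 with CpG-ODN, against 7.55, 7.36, 7.46 and 7.21 with saline. Its difference was 0.40 ± 0.19 (SE; limma, adjusted p = 0.141). The 3 highest arrays for MXD1 were CpG-ODN, and CpG-ODN 4 lay within the saline range.

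MXD3, the member of the family expressed in cycling cells, had 8.76, 9.01, 8.60 and 9.22 with CpG-ODN and 8.84, 8.59, 8.65 and 8.78 with saline. The groups were interleaved, with a difference of 0.18 ± 0.15 (SE; limma, adjusted p = 0.422). MNT, a widely expressed MAX and MLX partner, had 9.82, 9.41, 9.70 and 9.03 with CpG-ODN and 9.14, 9.27, 9.24 and 9.50 with saline. CpG-ODN 4 was the lowest of all 8 arrays for MNT, and the difference was 0.20 ± 0.18 (SE; limma, adjusted p = 0.449).

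MXI1, a further MAX-binding repressor, was at background. Of its 4 probes, 3 were detected on no array and 1 on saline 3 alone, with a detection p of 0.029 there. No fold is given for MXI1.

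**Figure D2:**
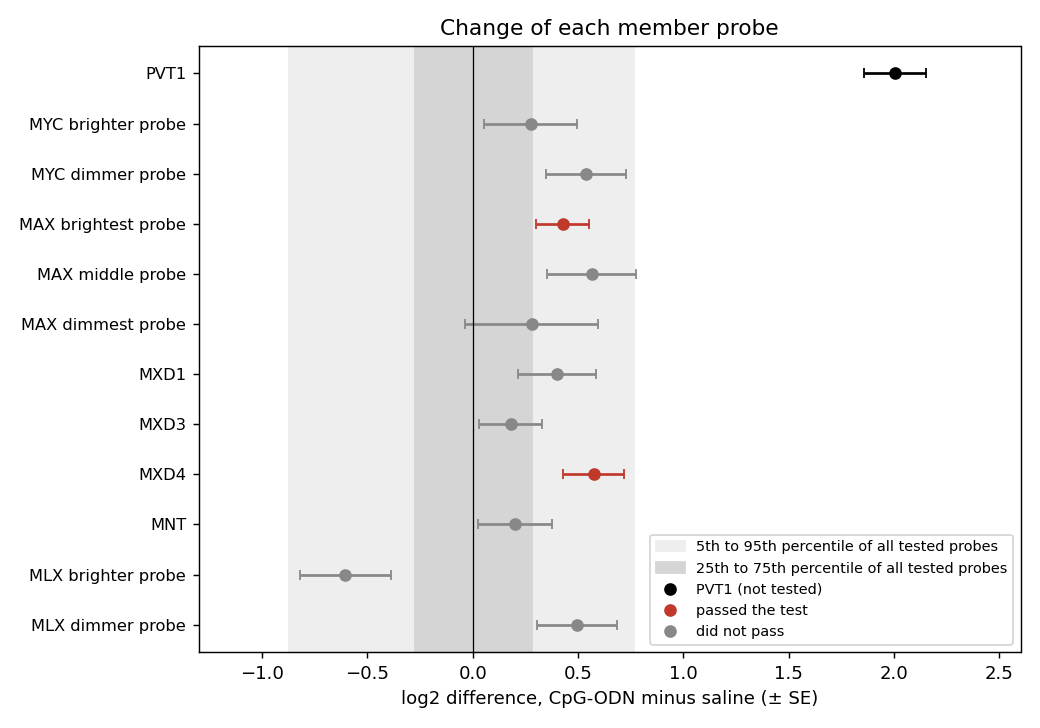
Log2 difference of each kept probe, CpG-ODN minus saline (horizontal axis), with the SE as bars. The shaded bands hold the 25th to 75th and the 5th to 95th percentile of all tested probes (-0.87 to 0.76 for the wider one). PVT1, at 2.00, lies outside the wider band, and the network probes lie inside it.

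MLX was read by 2 probes for different transcripts, and their differences had opposite signs. The brighter (NM_198204) had log2 levels of 7.82, 7.74, 7.75 and 6.82 with CpG-ODN, against 8.28, 8.21, 7.91 and 8.16 with saline. The groups did not overlap, and CpG-ODN 4 lay far below the rest. The difference was -0.60 ± 0.22 (SE; limma, adjusted p = 0.0643), and -0.36 without CpG-ODN 4 (adjusted p = 0.0843). This probe passed as lower in 6 of 21 alternatives.

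The dimmer MLX probe (NM_198205) had 6.73, 5.99, 6.37 and 6.07 with CpG-ODN, against 5.99, 5.47, 6.01 and 5.70 with saline, where it was above background on 3 of 4 arrays. The lowest CpG-ODN array lay 0.02 below the highest saline array. The difference was 0.50 ± 0.19 (SE; limma, adjusted p = 0.0786). The excess of the brighter over the dimmer MLX probe within an array was 1.09, 1.75, 1.38 and 0.74 with CpG-ODN and 2.29, 2.73, 1.89 and 2.46 with saline. These did not overlap, and the change of -1.10 had an exact permutation p of 0.0286 (two-sided, the smallest possible here), or 0.143 after adjustment over 5 probe pairs.

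**Figure D3:**
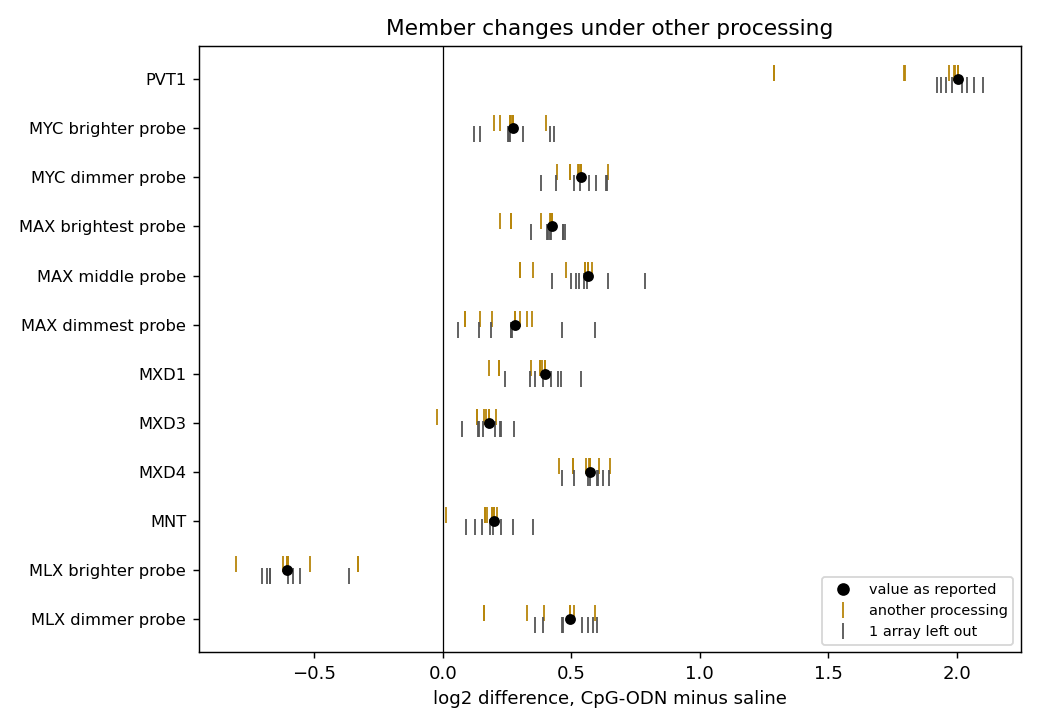
Log2 difference, CpG-ODN minus saline (horizontal axis), of the 12 kept probes as reported (points), under another processing (upper ticks) and with 1 array left out (lower ticks). PVT1 runs from 1.29 to 2.10, MXD4 from 0.45 to 0.65, and MXD3 crosses 0 in 1 setting.

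Along chromosome band 8q24, where PVT1 and MYC lie, the genes measured around PVT1 differed by less than PVT1 did. PVT1 was chosen for its difference, so this contrast follows in part from that choice. MYC, its direct neighbour in the RefSeq gene order, differed by 0.27 with its brighter probe and 0.54 with the other, beside 2.00 for PVT1. Of 24 genes listed around the pair, 16 were on the array and 10 were measured, of which 0 were higher and 1 was lower, while over 11023 genes 29.2% passed, 12.9% as higher and 16.3% as lower. EFR3A, which helps to anchor a lipid kinase at the plasma membrane, fell by 0.96 ± 0.14 (SE; limma, adjusted p = 0.000925). MTSS1, an actin regulator, differed by -0.72 ± 0.24 (SE; limma, adjusted p = 0.0512), and passed as lower in 9 of 21 alternatives. Among these were the fits without CpG-ODN 4 (adjusted p = 0.0177) or saline 1 (adjusted p = 0.0435), each making the count 2. The other 8 neighbours (CYRIB, TATDN1, TRIB1, LRATD2, ASAP1, SQLE, WASHC5 and NSMCE2) did not pass and lay between 0.08 and 0.38 by their brightest probes. The other probes of CYRIB and ASAP1, at 0.48 and 0.41, did not pass either. Scaling to the array median turned WASHC5 to -0.01 and NSMCE2 to -0.12. PCAT1 and CCDC26, noncoding RNA genes of the region, were on the array but were not above background on enough arrays.

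**Figure D4:**
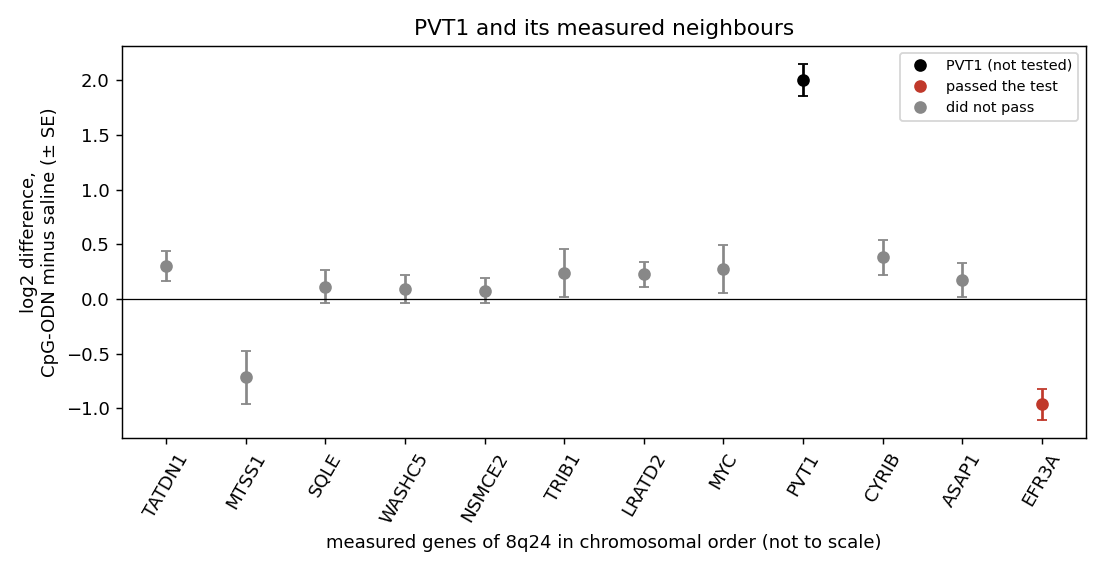
Log2 difference, CpG-ODN minus saline (vertical axis, bars are SE), of the measured genes of 8q24 in chromosomal order, which is not to scale. PVT1 is at 2.00 beside MYC at 0.27, and EFR3A at -0.96 is the neighbour that passed the test.

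The genes whose profile over the 8 arrays was most like that of PVT1 were sought among 14583 other probes with 1 gene. The measure was the root mean square difference of mean-centred log2 levels, whose median over all these probes was 1.04. The smallest values were 0.167 for LMTK2, a kinase gene, 0.176 for ST7-AS1, an antisense RNA gene, 0.184 for FUT5, a fucosyltransferase gene, 0.198 for SON, a splicing factor gene, and 0.209 for HMGA2, a chromatin architectural protein gene. ST7-AS1 and FUT5 were above background on no saline array, so they passed the filter through the CpG-ODN arrays alone. All of these nearest probes were higher with CpG-ODN, by 1.67 (SON) to 2.13 (HMGA2). PVT1 was chosen for its difference between the groups, which this measure takes in, so the likeness follows in part from that choice. For the brighter MYC probe, over 14582 probes with a median of 0.431, the nearest were B3GNT2 at 0.0816, NBPF10 at 0.111, FAM210A at 0.121, CIZ1 at 0.134 and EFHD1 at 0.137.

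Genes that MYC is known to activate were more often lower than higher. Of 84 listed, 74 were measured, of which 18 fell (24.3%) and 2 rose (2.70%), beside 16.3% and 12.9% of all genes. Their median difference was -0.17, beside -0.01 over all genes, and 55 of the 74 were below 0. UNG, a uracil-DNA glycosylase, fell by 1.48 ± 0.14 (SE; limma, adjusted p = 0.000105), with means of 10.00 ± 0.07 with CpG-ODN and 11.48 ± 0.24 with saline (SD, n = 4 each). CDCA7, a cell division gene, fell by 0.97 ± 0.15 (SE; limma, adjusted p = 0.00122). The cyclin gene CCND2 fell by 0.93 ± 0.27 (SE; limma, adjusted p = 0.0285), with overlapping groups and a further probe at -0.29 (adjusted p = 0.37). Its call was lost without any 1 of CpG-ODN 1 or 3 and saline 2 or 3 (adjusted p = 0.069 to 0.0771). NIP7, a ribosome biogenesis gene, rose by 0.84 ± 0.14 (SE; limma, adjusted p = 0.00169). The 20 calls of this list became 11 without CpG-ODN 1 and 12 without CpG-ODN 3, saline 2 or saline 3.

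Of 18 measured genes that MYC is known to repress, 4 rose (22.2%, beside 12.9% of all genes), 3 fell (16.7%, beside 16.3%) and 11 did not pass, with a median of -0.03. KLF6, a zinc finger transcription factor, rose by 1.01 ± 0.18 (SE; limma, adjusted p = 0.00284). GADD45A, a growth arrest gene, rose by 0.91 ± 0.17 (SE; limma, adjusted p = 0.00347), and its other probe by 1.20. CEBPA, a differentiation factor, rose by 0.73 ± 0.16 (SE; limma, adjusted p = 0.00681), which scaling to the array median reduced to 0.52 (adjusted p = 0.112). CDKN1C, a cyclin-dependent kinase inhibitor, fell by 1.38 ± 0.30 (SE; limma, adjusted p = 0.00747), with 3 of 4 CpG-ODN arrays above background.

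**Figure D5:**
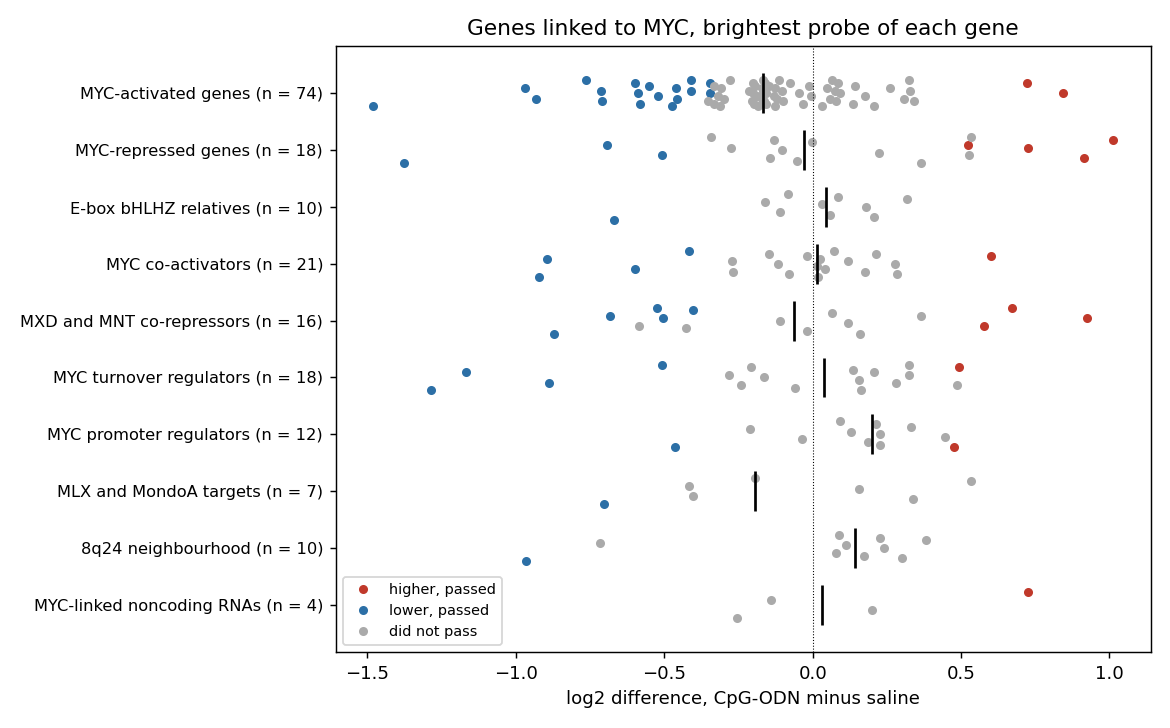
Log2 difference, CpG-ODN minus saline (horizontal axis), of each measured gene of 10 lists linked to MYC, coloured by whether it passed the test as higher, as lower or not at all. Black lines mark list medians, which run from -0.20 to 0.20. Among MYC-activated genes, 18 of 74 passed as lower and 2 as higher.

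Among 10 measured E-box relatives of the family, 0 were higher and 1 was lower, beside 29.2% of all genes that passed in either direction. MGA, a MAX partner with a T-box domain, fell by 0.67 ± 0.14 (SE; limma, adjusted p = 0.00551) with its brighter probe, while its other probe differed by 0.01 (adjusted p = 0.978). The remaining 9 (MITF, MLXIPL, TFE3, SREBF1, SREBF2, USF1, USF2, TFEB and TFAP4) did not pass and lay between -0.16 and 0.32 by their brightest probes. The other probes of SREBF1 and MITF, at -0.42 and -0.26, did not pass either. MYCN and MYCL, the paralogs of MYC, and MLXIP and TFEC were not above background on enough arrays. Of 7 measured targets of MLX and its partners, 0 were higher and 1 was lower (14.3% called, against 29.2% of all genes). PFKFB3, a regulator of glycolysis, fell by 0.70 ± 0.21 (SE; limma, adjusted p = 0.0295), and its other probe by 0.68. The call of its brighter probe was lost without any 1 of CpG-ODN 2 or 4 and saline 1, 2 or 4 (adjusted p = 0.06 to 0.0772). TXNIP, the best known target of MLX with MLXIP, differed by 0.53 (adjusted p = 0.0591), and the list counted 2 calls without CpG-ODN 1.

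The co-activators that MYC recruits gave 1 higher and 4 lower of 21 measured, with a median of 0.02. The share called, 23.8%, was near the 29.2% of all genes. TRRAP, the scaffold of histone acetyltransferase complexes that binds MYC, fell by 0.92 ± 0.14 (SE; limma, adjusted p = 0.00112). SMARCA4, a chromatin remodelling ATPase, fell by 0.89 ± 0.13 (SE; limma, adjusted p = 0.00101). KAT2A, an acetyltransferase held by TRRAP, fell by 0.60 ± 0.16 (SE; limma, adjusted p = 0.0177) with overlapping groups. EP300, another acetyltransferase, rose by 0.60 ± 0.13 (SE; limma, adjusted p = 0.00727), which scaling to the array median reduced to 0.43 (adjusted p = 0.15).

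The co-repressors used by MXD proteins and MNT gave 3 higher and 5 lower of 16 measured, with a median of -0.06. The share called was 50%, beside 29.2% of all genes. ING2, a histone-reading subunit of SIN3 complexes, rose by 0.93 ± 0.13 (SE; limma, adjusted p = 0.00077), and its other probe by 1.08. ING1, its relative, rose by 0.67 ± 0.12 (SE; limma, adjusted p = 0.00272), and by 0.50 with scaling to the array median (adjusted p = 0.0924). ARID4B, another subunit, fell by 0.87 ± 0.18 (SE; limma, adjusted p = 0.00593) with 1 probe, while its other probes, at 0.01 and -0.13, did not pass. SAP18, a SIN3-associated protein, fell by 0.68 ± 0.16 (SE; limma, adjusted p = 0.0102). Named after their values were seen, the scaffold SIN3A and the deacetylases HDAC1 and HDAC2 fell by 0.40, 0.52 and 0.50 (limma, adjusted p = 0.0294, 0.0131 and 0.0159). The remaining gene that passed, BRMS1, rose by 0.58 (limma, adjusted p = 0.00569). The rest, SIN3B, RBBP4, RBBP7 and KDM5B among them, did not pass by their brightest probes. Other probes of OGT (-0.70) and MORF4L1 (1.73) passed (limma, adjusted p = 0.00455 and 0.000212), the latter detected on 1 saline array.

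Regulators of MYC protein turnover gave 1 higher and 4 lower of 18 measured, with a median of 0.04. The share called, 27.8%, was close to the 29.2% of all genes. USP37, a deubiquitinase reported to stabilise MYC, fell by 1.29 ± 0.14 (SE; limma, adjusted p = 0.000183). HUWE1, a large ubiquitin ligase that acts on MYC and its partner ZBTB17, fell by 1.17 ± 0.14 (SE; limma, adjusted p = 0.000313). CIP2A, an inhibitor of the phosphatase that destabilises MYC, fell by 0.89 ± 0.14 (SE; limma, adjusted p = 0.00127). AURKA, a mitotic kinase that protects MYC family proteins, fell by 0.51 ± 0.13 (SE; limma, adjusted p = 0.0187). Its other probe differed by -0.32 (adjusted p = 0.155), and the call of the first was lost without CpG-ODN 1 (adjusted p = 0.0518). The 1 higher gene was GSK3B, at 0.49 ± 0.13 (SE; limma, adjusted p = 0.0194), named after its values were seen. The count takes the brightest probe of each gene. Named after their values were seen, DYRK2 and SKP2 did not pass by that probe (0.49 and 0.28, limma, adjusted p = 0.111 and 0.254). The other DYRK2 probes rose by 1.10 and 0.67 (limma, adjusted p = 0.000341 and 0.00358). Those of SKP2 differed by 1.47 and -1.15 (limma, adjusted p = 0.000124 and 0.00232), the latter detected on no CpG-ODN array. Protein levels were not measured.

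Among 12 measured regulators of the MYC promoter, 1 rose and 1 fell (16.7% called, beside 29.2% of all genes), with a median of 0.20. NFKB1, an NF-kB subunit, fell by 0.46 ± 0.11 (SE; limma, adjusted p = 0.0136), a call lost under both median scalings (adjusted p = 0.0776 and 0.0762). HNRNPK, which binds a pyrimidine-rich element upstream of MYC, rose by 0.48 ± 0.16 with its brighter probe (SE; limma, adjusted p = 0.04999), while its dimmer probe fell by 0.58 (adjusted p = 0.0348). The first of these calls was lost when any 1 of 6 arrays (all but CpG-ODN 4 and saline 1) was left out, with adjusted p of 0.0843 to 0.12, and the list then counted 1 or 2 calls. Of 4 measured noncoding RNA genes linked to MYC other than PVT1, 1 passed (25%, beside 29.2% of all genes). SNHG15, a snoRNA host gene, rose by 0.73 ± 0.17 (SE; limma, adjusted p = 0.0117), and by 0.54 with scaling to the array median (adjusted p = 0.113). H19, SNHG5 and TUG1 did not pass and lay between -0.25 and 0.20 by their brightest probes. The other SNHG5 probe, at 0.27, did not pass either.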

How the data were processed

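Gene expression was measured in 8 samples, each on its own 1-colour Illumina bead array, 4 from CpG-ODN and 4 from saline. Per the file headers, the deposited intensity values are non-normalized probe signals, each beside a deposited detection p-value. The submitters' processing notes name BeadStudio but no version of it. A second table of intensity values, normalized by the authors with a method not given in the sources used here, had nearly equal distributions on the 8 arrays, with medians of 209.04 to 209.07, a linear scale and no background subtracted, and served as an alternative.

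Signals were corrected for background by normexp, with the background inferred from the detection p-values, given an offset of 16, quantile normalized and put on the log2 scale with limma 3.58.1 in R 4.3.3 (the steps of neqc). The filter kept probes detected (p-value under 0.05) on 4 or more of the 8 arrays. Names came from the platform annotation, updated through the RefSeq gene table of GRCh38.p14. Of 18184 kept probes, 14584 had 1 gene, 3 had several and 3597 had none. They stand for 11023 genes, each represented in lists by its brightest kept probe.

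Groups were compared with lmFit and eBayes (limma), two-sided. The p-values were adjusted by Benjamini and Hochberg's method across the kept probes, and 0.05 was the threshold. This fit, which was tested on simulated data, gives each gene's adjusted p-value in the text. Changes of 2 probes of a gene were compared by exact permutation of the arrays. Marker sums are sums of normalized linear signals.

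The members and lists were chosen with earlier results of these data known, and the lists were compiled from general knowledge of MYC biology. Every member was named. From each list, up to 4 genes that passed, with the largest differences, were named. Every kept gene of the E-box relatives and 8q24 could be named, and 5 genes nearest in profile were named for PVT1 and MYC. A few list genes outside this rule were named after their values were seen.

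Alternatives covered background, normalization, the authors' table, the filter, a mean-variance trend, array weights, a 1.5-fold threshold, a replicate block, each array left out, the mean of a gene's probes and a stricter detection threshold. Median scaling over kept probes was chosen after seeing the data. Chip was not given in the sources used here, so it was not tested as a batch. The number of arrays limits the precision.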

Additional observations from a re-analysis of the deposited data

Results flagged for a closer look

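Of 38 groups of 4 arrays examined over the member probes and the array measures, 4 held an array far from the other 3, where chance gives about 1 in 20. For the brighter MLX probe, CpG-ODN 4 was the lowest at 6.82, with 7.74 as the nearest array and a gap of 0.921 of the group's range. Without it the difference of this probe was -0.36 in place of -0.60. For 1 MXI1 probe (ILMN_1670570), CpG-ODN 2 was the lowest at 5.06 against 5.51 (gap 0.865 of the range), and for another (ILMN_1793915), saline 3 was the highest at 5.86 against 5.49 (0.863). Both MXI1 probes were at background on nearly all arrays. The mean raw signal of saline 1, at 1079, lay above the next array at 906 (0.852 of the range).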

How the results depend on the processing

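Among 21 alternatives, the number of probes that passed ran from 3871 to 4288 with 1 array left out, was 470 against a 1.5-fold minimum, 3954 with the replicate block and up to 5364 otherwise. Scaling to the array median moved the median of all probes to -0.10 and gave 858 higher and 2775 lower of 3633. Median scaling over kept probes moved it to 0.10 and gave 2920 higher and 2195 lower of 5115, beside 2322 and 2521 of 4843 as reported. Same-numbered arrays deviated from their group means with r of -0.27 to 0.09, and 0 of 4 numbers matched best with themselves. These values gave no sign of pairing by replicate number. They cannot settle whether the numbers pair the samples, and the labels do not say. The replicate block gave 3 member probes, 13 MYC-activated genes, 1 MYC promoter regulator, 0 MLX and MondoA targets and 2 genes of 8q24. The block made the dimmer MLX probe (limma, adjusted p = 0.0381), the dimmer MYC probe (0.0299) and MTSS1 (0.0133) pass, and lost the brightest MAX probe (0.0773), HNRNPK (0.0763) and PFKFB3 (0.0569). The causes were not tested.

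Member probes that passed, 2 as reported, were 4 without background correction, with an offset of 50, in the authors' table, with detection on all 8 arrays, with a mean-variance trend (3 higher and 1 lower in each of these) and with median scaling over kept probes (4 higher). They were 1 with median scaling (the brighter MLX probe, lower), without a filter and with detection on at least 1 array, and 0 against 1.5-fold. With 1 array left out they ranged from 1 to 3.

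Without background correction, and in the authors' table, turnover regulators gave 8 calls, MLX and MondoA targets 2, 8q24 genes 2 and noncoding RNAs 2. An offset of 50, and detection on all 8 arrays, gave 2 and 2 for MLX and MondoA targets and 8q24 genes, and the mean of a gene's probes gave 2 and 2, with 0 E-box relatives. The mean-variance trend gave 2, 3 and, for noncoding RNAs, 2. Median scaling gave 3 co-activators, 5 co-repressors, 0 promoter regulators, 2 genes of 8q24 and 0 noncoding RNAs, and median scaling over kept probes gave 3 genes of 8q24. Cyclic loess gave 1 promoter regulator and 2 genes of 8q24, and array weights gave 1 promoter regulator. Without a filter, or with detection on at least 1 array, 12 MYC-activated genes, 2 E-box relatives and 1 promoter regulator passed. Against 1.5-fold, 1 MYC-activated gene and 2 turnover regulators passed, and 0 genes of every other list. With 1 array left out, calls ranged from 11 to 18 for MYC-activated genes, 1 to 2 for promoter regulators, 0 to 2 for MLX and MondoA targets and 1 to 2 for 8q24 genes.

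The change of the brightest MAX probe relative to the dimmest ranged from -0.13 to 0.33 with 1 array left out, and reversed to -0.06 and -0.13. The difference in probes detected, -962 as reported (p = 0.0286), was -368.5 at a detection threshold of 0.01 (exact permutation p = 0.229) and -1184 to -741 with 1 array left out, and missed the threshold without any 1 of the CpG-ODN arrays (exact permutation p = 0.0571).

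Single genes that reversed had small differences. With median scaling, MXD3 was -0.021, USF1 -0.050, USF2 -0.087, TFE3 -0.018, TFAP4 -0.19, WASHC5 -0.012 and NSMCE2 -0.12. With median scaling over kept probes, SREBF2 was 0.024 and TFEB 0.10. With 1 array left out, USF1 ranged from -0.012 to 0.19, USF2 from -0.027 to 0.19, TFAP4 from -0.047 to 0.13, SREBF2 from -0.25 to 0.036 and TFEB from -0.24 to 0.011. Of 1274 single-gene values under alternatives, 1159 kept their direction and side of the threshold.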

Other observations

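The letters CACGTG were also counted in the promoter windows of genes outside the network. Of 62 measured MYC-activated genes with a window, 28 held the motif (45.2%), and of the 16 that fell, 5 did (31.3%). Among 8991 measured genes with a window, 12.7% held it, as did 11.6% of 1140 genes that were higher with CpG-ODN and 12.1% of 1502 that were lower. These shares describe the letters in the windows and were not tested.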
